A study of Mus musculus with 8 samples.

Results

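Mitosis genes other than the kinesin family are 40 genes whose products start mitosis, attach chromosomes to the spindle, license their separation and divide the cell. They were taken as the table rows whose symbol was on a list of names. No value enters that rule, but the list was written with earlier results of these data known, so its direction is not independent evidence. They are 40 of the 45777 genes in the table, and all 40 were among the 17975 genes with enough reads to be tested. The list leaves out mitotic kinesins, with 1 exception: Cenpe encodes CENP-E, a kinesin motor of the kinetochore, and was kept with the kinetochore genes.

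RNA was sequenced from primary hepatic stellate cells of male wild-type C57BL/6 mice. These are pericyte-like liver cells that store vitamin A and, in culture or after injury, turn into dividing, matrix-producing myofibroblasts. One group of 4 libraries, siControl, came from cells given a control siRNA (labelled si Control), and the other group of 4, siPAK4, from cells given an siRNA against PAK4, a kinase of the p21-activated family that CDC42 recruits to remodel actin. Both groups share strain, sex, genotype and the label of batch 1. The sources used here do not give the age of the mice, the siRNA sequences, the time after transfection or the culture conditions. The labels number the replicates 1 to 4 in each group without saying whether they were separate mice or dishes, so a p-value here measures only the scatter of these samples, which may be technical.

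Pak4 itself (gene 70584, mm10 chr7:28558819-28598184) checks the labels. Levels are given in CPM, read counts relative to the TMM-scaled size of the library, always in the order of replicates 1 to 4. Pak4 was at 18.6, 17.7, 16.4 and 16.2 CPM in siControl and at 7.73, 5.70, 5.17 and 6.69 CPM in siPAK4. Every siPAK4 library was below every siControl library. The mean fell from 17.2 ± 1.14 to 6.32 ± 1.13 CPM (SD, n = 4 each), which is −1.44 as a log2 fold change (SE 0.118, adjusted p = 9.4e-06). Fold changes here are siPAK4 over siControl, and adjusted p-values of genes are from edgeR's quasi-likelihood test with Benjamini-Hochberg adjustment over all 17975 genes, called at 0.05. One library, siPAK4 replicate 3, stood apart from its group in the mitosis genes, and results that rest on it are given with and without it.

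Cells transcribe most of these genes late in the cell cycle, shortly before they divide, and keep them low at rest. The DREAM complex represses many of them in resting cells, and the MuvB core with B-MYB and then FOXM1 activates them before mitosis. Both act through a short promoter element, the CHR (cell cycle genes homology region), often beside CCAAT boxes bound by NF-Y. The proteins work in a sequence: cyclins and kinases drive entry, kinetochores and passenger proteins attach and correct, the checkpoint holds anaphase back, and the spindle midzone then guides cytokinesis. Stellate cells of a healthy liver rarely divide, while activated ones do.

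With siPAK4, 39 of the 40 genes were lower at an adjusted p under 0.05, and 0 were higher. Over all 17975 tested genes, 14.5% were lower and 12.4% were higher. The estimate was below 0 for all 40 genes. Their median log2 fold change was −0.50, with a range of −0.92 (Mki67) to −0.06 (Ckap2, the gene that did not pass), against a median of 0.01 over all tested genes. In linear terms the median gene was 29.4% lower, 32 of the 40 were lower by more than 25%, and 0 had a log2 fold change below −1. In bulk RNA, fewer dividing cells and less of these RNAs per cell cannot be told apart.

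**Figure D1:**
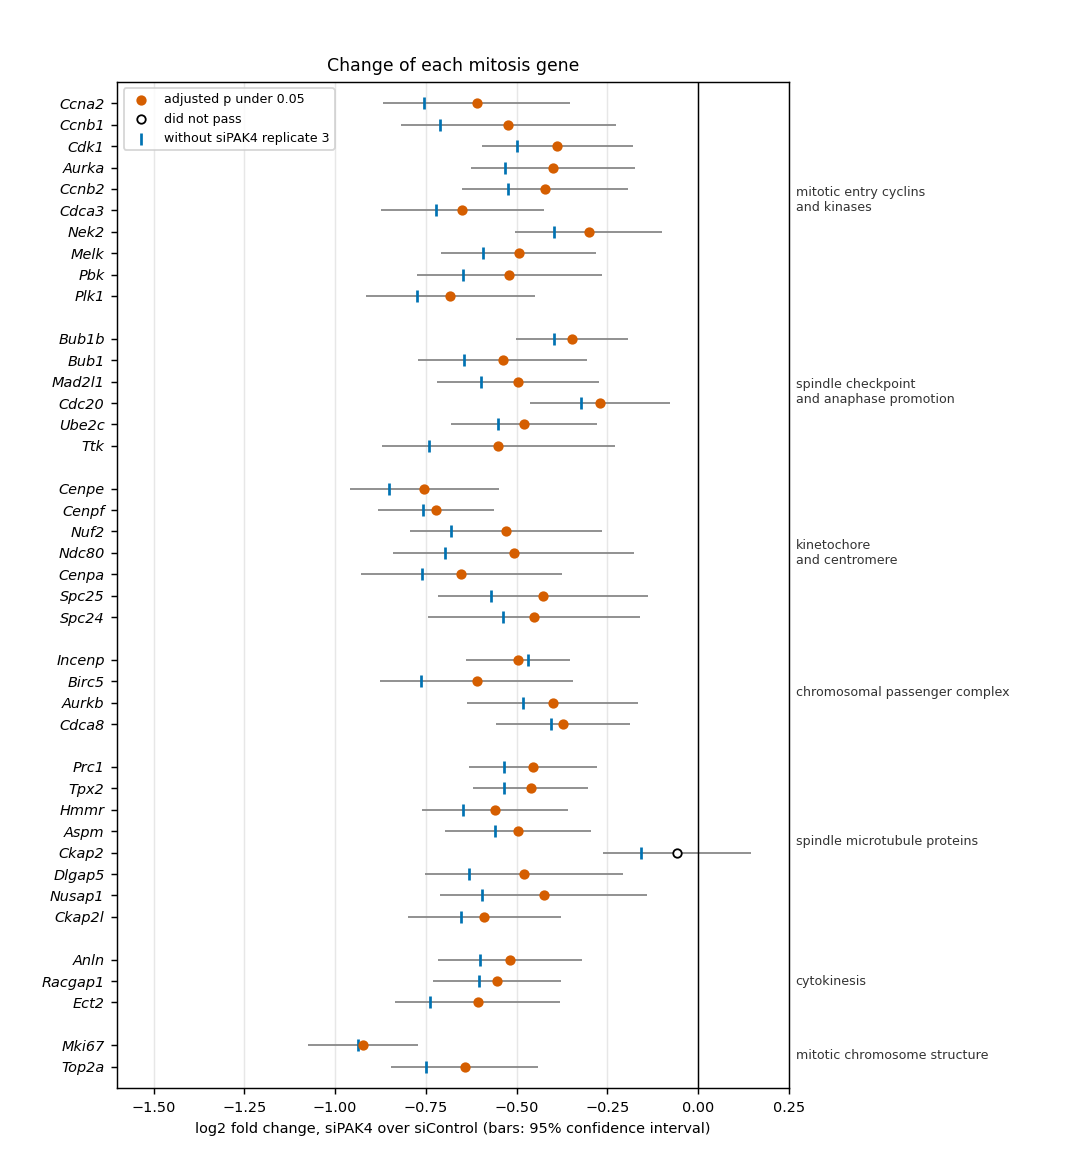
Log2 fold change of each of the 40 mitosis genes, siPAK4 over siControl, with its 95% confidence interval, grouped by role. Filled points passed an adjusted p of 0.05, the open point (Ckap2) did not, and blue ticks give the estimate without siPAK4 replicate 3, which lies further from 0 for 39 genes and nearer to 0 for Incenp.

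The 40 genes together took 1510, 1587, 1690 and 1582 CPM in siControl libraries and 981, 950.2, 1230.0 and 1058 CPM in siPAK4 libraries. The groups did not overlap, and the siPAK4 mean (1055 ± 125 CPM, SD, n = 4) was 0.662 of the siControl mean (1592 ± 74.1 CPM). They held 0.146% to 0.162% of all counts in siControl and 0.1001% to 0.1249% in siPAK4. No member was near the detection limit: the lowest count of any member in any library was 206.

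For 29 of the 40 genes every siPAK4 library was below every siControl library, against 14.8% of all tested genes. The 11 others were Cdk1, Ccnb1, Ccnb2, Cdc20, Ndc80, Spc24, Spc25, Aurkb, Nusap1, Dlgap5 and Ckap2. For each of these, siPAK4 replicate 3 was at or above the lowest siControl library, and for Ckap2 it was above all of them. siPAK4 replicate 3 was the highest library of its group for 38 of the 40 genes. The exceptions were Mki67 and Incenp, for which siPAK4 replicate 4 was the highest. Counted after its position had been seen, the 3 other siPAK4 libraries lay below every siControl library for all 40 genes, against 19.4% of all tested genes.

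**Figure D2:**
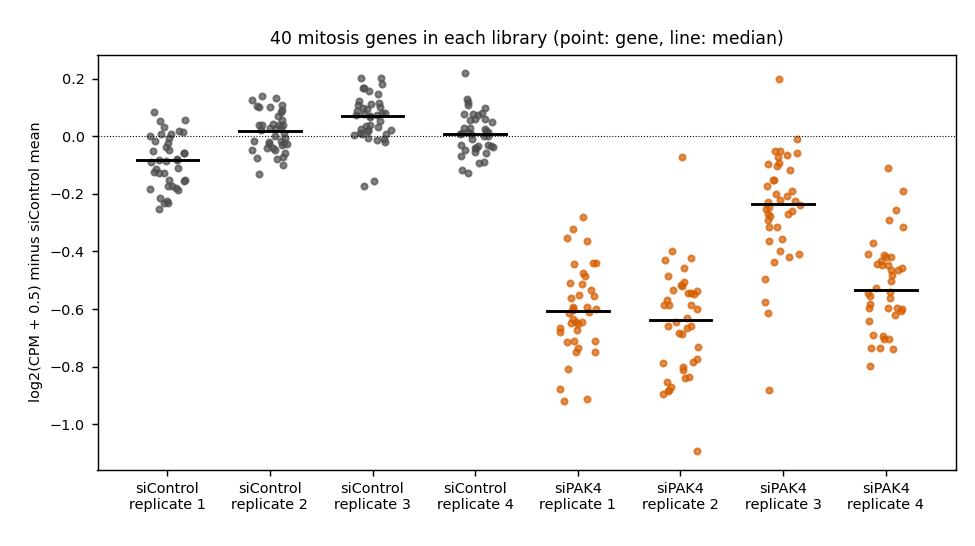
Level of each of the 40 mitosis genes in each library, as log2(CPM + 0.5) minus the mean of the 4 siControl libraries; points are genes and lines are medians. The medians are −0.08, 0.02, 0.07 and 0.01 in the siControl libraries and −0.61, −0.64, −0.23 and −0.53 in the siPAK4 libraries, each in the order of replicates 1 to 4.

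That library had a median deviation of −0.23 over the 40 genes, where siPAK4 replicates 1, 2 and 4 had −0.61, −0.64 and −0.53. It also had the lowest Pak4 level of all 8 libraries, 5.17 CPM. Without siPAK4 replicate 3, the median log2 fold change of the 40 genes was −0.60 in place of −0.50, and 39 were again lower. The change was not confined to these genes: over all tested genes, 5494 were called in place of 4832. Leaving out any 1 of the other libraries gave 3543 to 4213 calls. The median coefficient of variation within a group was 6.73% in siControl and 14.02% in siPAK4. Among siControl libraries, replicate 1 was the lowest for 26 of the 40 genes.

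The RefSeq promoter table (build GRCm38.p6, the same as mm10), which gives 250 bases before and 50 after a start site, held 33 of the 40 genes. It had no entry for Ccna2, Pbk, Spc24, Aurkb, Incenp, Tpx2 or Dlgap5. A CHR element (TTTGAA or TTCGAA on either strand) was found for 25 of the 33 genes, or 75.8%, against 17.4% of the 12908 tested genes in the table. A CCAAT box (CCAAT on either strand, read as ATTGG where inverted) was found for 26 of 33, or 78.8%, against 42.3%. Both elements stood in the promoters of 23 of 33, or 69.7%, against 7.23% of tested genes.

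Among the 25 genes with a CHR element, the element nearest the start lay within 60 bases of it in 23. In the other 2, Mki67 and Ckap2, it lay 98 and 101 bases upstream. These 2 genes also had the largest and the smallest fold change of the 40. The 5 promoters with the CHR element nearest the start, and those of Mki67 and Ckap2, chosen after their fold changes were seen, are printed here so that the arrangement of the 2 elements can be compared. Each is written 5′ to 3′ on the gene's strand and ends 30 bases after the start, with CHR elements and CCAAT boxes in capitals.
Cenpf, kinetochore (chr1:189688057-189688216, minus strand): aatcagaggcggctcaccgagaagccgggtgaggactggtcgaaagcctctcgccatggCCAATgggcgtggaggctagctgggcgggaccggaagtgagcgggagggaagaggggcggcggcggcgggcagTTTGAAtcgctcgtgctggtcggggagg
Ccnb2, mitotic cyclin (chr9:70421525-70421684, minus strand): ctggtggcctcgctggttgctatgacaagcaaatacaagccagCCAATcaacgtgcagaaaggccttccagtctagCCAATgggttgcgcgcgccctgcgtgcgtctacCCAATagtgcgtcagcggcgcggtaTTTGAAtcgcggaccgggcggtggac
Prc1, spindle midzone (chr7:80294321-80294480, plus strand): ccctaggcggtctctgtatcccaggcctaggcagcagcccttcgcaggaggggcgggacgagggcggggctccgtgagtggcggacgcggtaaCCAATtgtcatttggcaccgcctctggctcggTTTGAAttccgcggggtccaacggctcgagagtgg
Racgap1, cytokinesis (chr15:99651627-99651786, minus strand): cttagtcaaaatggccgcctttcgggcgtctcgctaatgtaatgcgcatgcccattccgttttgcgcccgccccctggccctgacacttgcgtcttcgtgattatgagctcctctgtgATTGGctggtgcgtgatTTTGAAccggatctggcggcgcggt
Aspm, spindle pole (chr1:139454643-139454802, plus strand): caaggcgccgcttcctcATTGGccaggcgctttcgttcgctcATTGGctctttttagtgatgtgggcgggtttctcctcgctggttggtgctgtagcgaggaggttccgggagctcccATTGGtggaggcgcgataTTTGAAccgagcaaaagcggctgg
Mki67, largest fold change (chr7:135716350-135716579, minus strand): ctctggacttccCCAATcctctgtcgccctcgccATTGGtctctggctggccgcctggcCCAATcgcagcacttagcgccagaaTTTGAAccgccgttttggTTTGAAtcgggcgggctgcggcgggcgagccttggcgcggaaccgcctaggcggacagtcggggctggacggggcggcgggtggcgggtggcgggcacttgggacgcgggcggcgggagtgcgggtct
Ckap2, smallest fold change (chr8:22185790-22186019, minus strand): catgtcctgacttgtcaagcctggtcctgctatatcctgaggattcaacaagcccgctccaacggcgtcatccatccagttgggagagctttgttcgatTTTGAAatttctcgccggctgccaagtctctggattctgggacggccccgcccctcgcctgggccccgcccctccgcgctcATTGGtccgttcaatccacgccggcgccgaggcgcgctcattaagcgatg

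In all 7, the CHR element reads TTTGAA. The first 5 were chosen for a CHR element near the start, so that it is the element closest to the start follows largely from the choice. In each of these 5 a CCAAT box lies upstream of the CHR element. Mki67 has 2 CHR elements and 3 CCAAT boxes, all upstream of the start and in the same order. In Ckap2 the order is turned: its 1 CCAAT box lies between the CHR element and the start. This is not particular to Ckap2. Promoters not printed here, those of Cdc20 and Ckap2l, also hold a CCAAT box between the nearest CHR element and the start. In Cdc20 (log2 fold change −0.27) the element begins at −18 and the box at −8. In Ckap2l (−0.59) they begin at −30 and −14. A letter match describes the sequence and does not show that a factor bound there.

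Another element, an E2F-like core (TTGGCG, the variant TTCGCG or the variant TTCCCG, on either strand), was found for 14 of the 33 genes, or 42.4%, against 36% of tested genes. The TTGGCG core can share bases with an inverted CCAAT box. DNA replication genes, which are transcribed earlier in the cycle, had the opposite make-up in this window for E2F-like cores (75.9%) and CHR elements (20.7%). This did not hold for the CCAAT box, found for 62.1% of them, against 78.8% of the mitosis genes and 42.3% of tested genes. Of the mitotic kinesins, 90.9% (10 of 11) held the CHR element, a higher share than in the mitosis genes, and 27.3% the E2F-like core. Within the mitosis genes, the median log2 fold change was −0.52 for the 25 genes with a CHR element and −0.51 for the 8 without (Birc5, Ccnb1, Cenpe, Mad2l1, Melk, Nek2, Nuf2 and Nusap1).

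**Figure D3:**
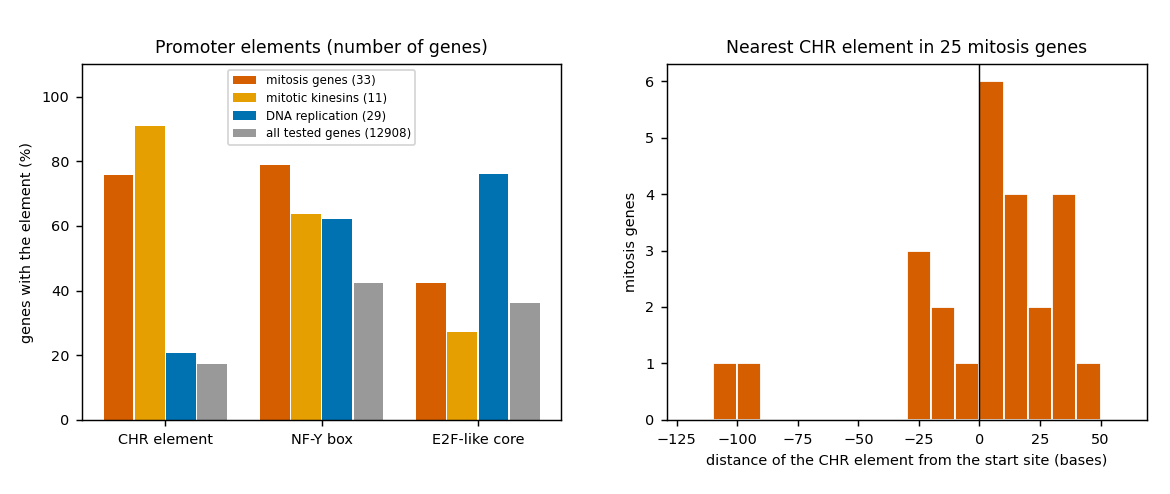
Left, percentage of genes whose promoter holds a CHR element, a CCAAT (NF-Y) box or an E2F-like core, for mitosis genes, mitotic kinesins, DNA replication genes and all tested genes. Right, distance in bases from the start site to the nearest CHR element in the 25 mitosis genes that hold one (negative is upstream); 23 lie within 60 bases, with a median position of 8.

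The genes of mitotic entry, cyclins and kinases together with Cdca3, were lower in 10 of 10, with a median log2 fold change of −0.51. By deposited TPM, which allows levels to be compared between genes, Ccnb1 was the most abundant of them in siControl, at 46.7 ± 3.13 TPM (SD, n = 4). Ccnb1 encodes cyclin B1, the partner of CDK1 in the kinase that starts mitosis. It was at 45.4, 52.0, 54.2 and 51.1 CPM in siControl and at 30.7, 32.1, 48.0 and 30.1 CPM in siPAK4. Replicates 1, 2 and 4 of siPAK4 lay close together, and replicate 3 was within the siControl range. The log2 fold change was −0.52 (SE 0.135, adjusted p = 0.0143) with all libraries and −0.71 (adjusted p = 1.04e-05) without siPAK4 replicate 3.

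Plk1, the polo-like kinase that acts at centrosomes, kinetochores and the midzone, fell most in this role. Its level was 12.6, 13.4, 12.9 and 11.5 CPM in siControl and 8.12, 6.65, 9.27 and 7.34 CPM in siPAK4. The groups were apart, with a mean 37.7% lower (log2 fold change −0.68, SE 0.107, adjusted p = 0.000692). Nek2, a kinase that helps centrosomes part, fell least. It was at 18.1, 18.2, 17.6 and 17.5 CPM in siControl and 12.997, 12.9, 17.2 and 14.9 CPM in siPAK4. siPAK4 replicate 3 was just under the siControl libraries, and the log2 fold change was −0.30 (SE 0.0932, adjusted p = 0.0319). The call was lost with library totals and on leaving out any 1 library other than siPAK4 replicate 3 (adjusted p 0.0549 to 0.1).

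The 7 other genes of mitotic entry lay between these. Ccna2, which encodes cyclin A2, had a log2 fold change of −0.61 (adjusted p = 0.00278), and Cdca3, which helps degrade the CDK1 inhibitor WEE1, −0.65 (adjusted p = 0.000746). The kinases Melk (−0.49) and Pbk (−0.52) came next, with adjusted p of 0.00313 and 0.00659. Cdk1, the central mitotic kinase, was at −0.39 (adjusted p = 0.0108), Ccnb2, the second B-type cyclin, at −0.42 (adjusted p = 0.0114), and Aurka, the centrosomal Aurora kinase, at −0.40 (adjusted p = 0.0139). In Cdk1 and Ccnb2 the groups overlapped, and in the other 5 they did not.

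The spindle checkpoint and anaphase group, 6 genes, was lower in 6 of 6, with a median log2 fold change of −0.49. Checkpoint proteins at unattached kinetochores hold CDC20 back from the anaphase-promoting complex, and UBE2C is the ubiquitin-conjugating enzyme of that complex. Ube2c was the most abundant of the 6 in siControl (36.7 ± 3.25 TPM, SD, n = 4). It was at 16.6, 17.1, 14.1 and 16.1 CPM in siControl and 10.4, 10.97, 13.1 and 11.4 CPM in siPAK4, and the groups were apart (log2 fold change −0.48, SE 0.092, adjusted p = 0.00261).

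Ttk, the checkpoint kinase also called MPS1, had the largest fall of the 6. It was at 9.59, 10.1, 10.5 and 10.7 CPM in siControl and at 6.31, 5.48, 9.53 and 6.56 CPM in siPAK4. siPAK4 replicate 3 was just under the lowest siControl library while the other 3 lay well below (log2 fold change −0.55, SE 0.147, adjusted p = 0.0162). Cdc20, the target of the checkpoint, fell least, from 20.1, 24.3, 22.997 and 24.6 CPM to 18.2, 16.98, 21.1 and 20.03 CPM. Its groups overlapped, since siControl replicate 1 was below siPAK4 replicate 3, and its log2 fold change was −0.27 (SE 0.0883, adjusted p = 0.0414). That call was lost with library totals, without the count filter, in both TPM fits and on leaving out any 1 of siControl replicates 2, 3 and 4 or siPAK4 replicates 1, 2 and 4 (adjusted p 0.0502 to 0.127). Bub1 (−0.54, adjusted p = 0.0032), Bub1b, which encodes BUBR1 (−0.35, adjusted p = 0.00361), and Mad2l1, which encodes MAD2 (−0.50, adjusted p = 0.00406), are the other checkpoint members, and their groups did not overlap.

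**Figure D4:**
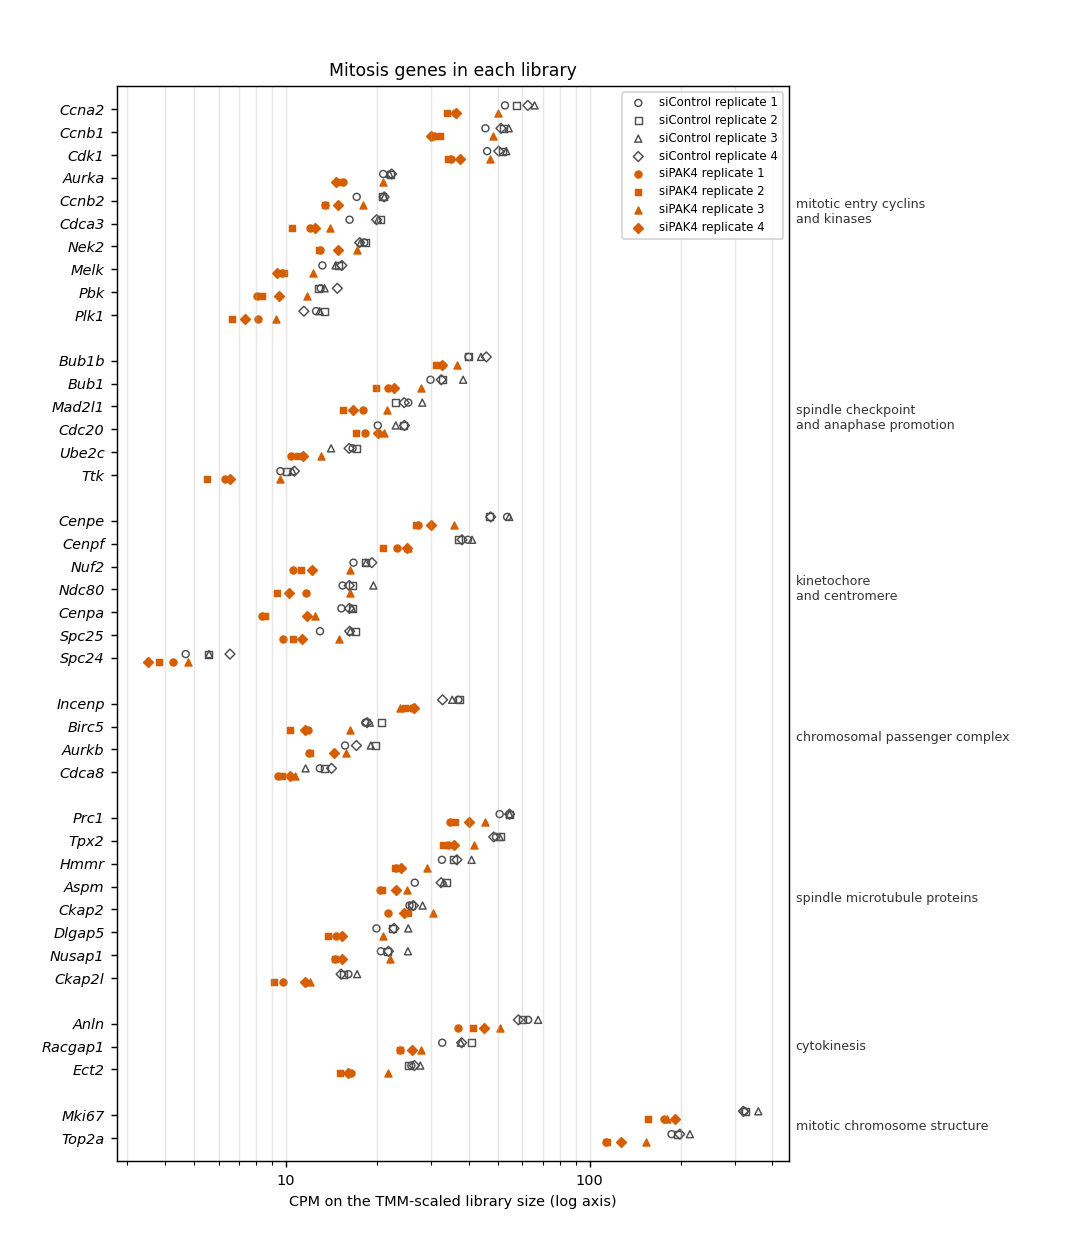
CPM of the 40 mitosis genes in each of the 8 libraries, on a log axis, grouped by role and ordered by mean siControl CPM; open grey symbols are siControl, filled orange symbols siPAK4, and the shape gives the replicate number. All siPAK4 symbols lie left of all siControl symbols for 29 of the 40 genes, and the orange triangle, siPAK4 replicate 3, is the rightmost orange symbol for 38 of 40. CPM is not scaled to gene length, so levels are not compared between genes on this axis.

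Kinetochore and centromere genes were lower in 7 of 7, with a median of −0.53. Cenpe, the kinesin motor that carries chromosomes to the spindle equator, fell by 40.7% from 53.5, 47.0, 54.4 and 47.2 CPM to 27.2, 26.9, 35.7 and 30.1 CPM. The groups were far apart (log2 fold change −0.75, SE 0.0939, adjusted p = 0.000144). Cenpf, whose promoter is printed above, encodes a large kinetochore and nuclear envelope protein. It had the next largest change of this group, −0.72 (adjusted p = 3.29e-05), with non-overlapping groups.

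Cenpa, the histone H3 variant that marks the centromere, was the most abundant of these genes in siControl (23.8 ± 0.867 TPM, SD, n = 4). It was at 15.2, 16.6, 16.5 and 16.2 CPM in siControl and at 8.33, 8.50, 12.5 and 11.7 CPM in siPAK4. Here siPAK4 split evenly, with replicates 3 and 4 above replicates 1 and 2 and all below siControl (log2 fold change −0.65, SE 0.127, adjusted p = 0.00285). NDC80, NUF2, SPC24 and SPC25 form the NDC80 complex, the microtubule-binding arm of the kinetochore, and its 4 genes were lower by similar estimates. Spc25 had the smallest, from 12.9, 17.01, 16.3 and 16.2 CPM to 9.76, 10.5, 14.9 and 11.3 CPM, with siControl replicate 1 below siPAK4 replicate 3 (log2 fold change −0.43, SE 0.132, adjusted p = 0.0324). Ndc80 (−0.51, adjusted p = 0.0277) and Spc24 (−0.45, adjusted p = 0.0262) overlapped too, and Nuf2 (−0.53, adjusted p = 0.00736) did not. Leaving out siControl replicate 2 or 3, or siPAK4 replicate 2 or 4, ended the calls for Ndc80, Spc24 and Spc25. So did leaving out siPAK4 replicate 1 for Ndc80 and Spc25, and siControl replicate 4 or scaling by library totals for Spc24 and Spc25 (adjusted p 0.0579 to 0.0935 in all of these).

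The chromosomal passenger complex, which corrects faulty attachments and later moves to the midzone, was lower in 4 of 4, with a median of −0.45. Its kinase Aurkb was at 15.7, 19.7, 19.04 and 17.1 CPM in siControl and at 11.9, 12.03, 15.7 and 14.4 CPM in siPAK4. siPAK4 replicate 3 and siControl replicate 1 met at 15.7, and the log2 fold change was −0.40 (SE 0.108, adjusted p = 0.0166). Its call was lost without siControl replicate 2 or 3 or siPAK4 replicate 2 (adjusted p 0.0539 to 0.0579). Birc5, which encodes survivin, was the most abundant of the 4 by TPM (35.99 ± 1.92 in siControl, SD, n = 4) and fell from 18.3, 20.6, 18.9 and 18.5 CPM to 11.8, 10.3, 16.2 and 11.6 CPM. Its groups were apart (log2 fold change −0.61, SE 0.122, adjusted p = 0.00345).

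Incenp, the scaffold of the complex, differed from most other genes in its siPAK4 libraries. It was at 37.0, 37.4, 35.3 and 32.8 CPM in siControl and at 26.1, 24.7, 23.7 and 26.5 CPM in siPAK4, where replicate 3 was the lowest. The log2 fold change was −0.50 (SE 0.0656, adjusted p = 0.000221). Cdca8, which encodes borealin, fell from 12.9, 13.4, 11.6 and 14.1 CPM to 9.44, 9.73, 10.7 and 10.3 CPM, with groups that did not overlap (log2 fold change −0.37, SE 0.0844, adjusted p = 0.0069).

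Spindle microtubule proteins were lower in 7 of 8 genes, with a median of −0.47. Prc1 bundles the antiparallel microtubules of the midzone and was the most abundant by TPM (38.1 ± 0.995 in siControl, SD, n = 4). It was at 50.6, 54.5, 54.5 and 54.5 CPM in siControl and at 34.8, 35.9, 45.3 and 40.1 CPM in siPAK4, and the groups were apart (log2 fold change −0.46, SE 0.0807, adjusted p = 0.00157). Ckap2l, which encodes a spindle protein also called radmis, had the largest fall, from 16.1, 15.5, 17.2 and 15.2 CPM to 9.78, 9.13, 11.996 and 11.6 CPM (log2 fold change −0.59, SE 0.0966, adjusted p = 0.00093).

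Ckap2, a microtubule-associated spindle protein related to Ckap2l (gene 80986, chr8:22168149-22185819), was the 1 gene of the 40 that did not pass. It was at 25.5, 26.0, 28.2 and 26.3 CPM in siControl and at 21.7, 25.1, 30.5 and 24.5 CPM in siPAK4. siPAK4 replicate 3 was the highest of all 8 libraries, and the other 3 were below every siControl library. The log2 fold change was −0.06 with a 95% confidence interval of −0.26 to 0.15 (SE 0.0929, adjusted p = 0.697), and without siPAK4 replicate 3 it was −0.16 (adjusted p = 0.115).

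The 5 other spindle genes had log2 fold changes of −0.56 to −0.43. Hmmr, which encodes a spindle-pole protein and hyaluronan receptor, was at −0.56 (adjusted p = 0.000968), Aspm, which focuses spindle poles, at −0.50 (adjusted p = 0.00215), and Tpx2, the activator of Aurora A, at −0.46 (adjusted p = 0.000742), all with groups apart. Dlgap5, a spindle-stabilising protein (−0.48, adjusted p = 0.0143), and Nusap1, which bundles microtubules near chromatin (−0.43, adjusted p = 0.0312), had overlapping groups. The Dlgap5 call was lost without siControl replicate 3 (adjusted p = 0.0505). The Nusap1 call was lost with library totals and without any 1 of siControl replicates 2, 3 and 4 or siPAK4 replicates 1, 2 and 4 (adjusted p 0.0537 to 0.0976). Aspm had the lowest siControl level of the 40 genes by TPM, 6.88 ± 0.712 (SD, n = 4).

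The cytokinesis genes were lower in 3 of 3, with groups that did not overlap. Anln encodes anillin, a scaffold of the contractile ring, and was at 62.7, 60.1, 67.7 and 58.3 CPM in siControl and 36.8, 41.2, 50.6 and 45.1 CPM in siPAK4 (log2 fold change −0.52, SE 0.0909, adjusted p = 0.00146). Ect2, the exchange factor that activates RhoA at the midzone, fell from 25.9, 25.3, 27.7 and 26.5 CPM to 16.3, 15.1, 21.7 and 16.0 CPM (log2 fold change −0.61, SE 0.104, adjusted p = 0.00126). Racgap1, the centralspindlin subunit that binds ECT2, fell from 32.7, 40.8, 37.7 and 37.9 CPM to 23.8, 23.8, 27.9 and 26.1 CPM (log2 fold change −0.55, SE 0.0808, adjusted p = 0.000438). Anln and Ect2 were highest within siPAK4 in replicate 3, as was Racgap1, though its siPAK4 spread was narrower.

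The 2 genes of mitotic chromosome structure had the highest levels of the 40 per length, and both fell. Top2a, the topoisomerase that untangles sister DNA, was at 186, 195, 214 and 198 CPM in siControl and at 113, 114, 154 and 127 CPM in siPAK4. The groups were apart (log2 fold change −0.64, SE 0.0923, adjusted p = 0.000412), and the level went from 81.3 ± 4.59 to 53.2 ± 4.66 TPM (SD, n = 4 each).

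Mki67 (gene 17345, chr7:135689784-135716450), which encodes the Ki-67 protein that coats mitotic chromosomes and is widely used as a marker of cycling cells, fell most of the 40. It was at 323, 325, 359 and 321 CPM in siControl and at 175, 155, 180.0 and 191 CPM in siPAK4. All siPAK4 libraries were far below siControl, and replicate 3 was not the highest of them. The mean was 47.2% lower, and the log2 fold change was −0.92 (SE 0.0694, 95% confidence interval −1.07 to −0.77, adjusted p = 6e-06). The estimates of the 39 other genes all lay outside that interval, nearer to 0. Their own intervals are wide, however, and those of Cenpe (−0.96 to −0.55) and Cenpa (−0.93 to −0.37) held the Mki67 estimate. A difference between Mki67 and the other genes was not tested. In TPM the mean went from 71.3 ± 4.45 to 38.9 ± 2.34 (SD, n = 4 each).

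Across the 40 genes, the size of the change was not ordered by abundance: Spearman's rho between log2 fold change and mean siControl TPM was 0.026. With the genomic span of the gene, from its first to its last coordinate, rho was −0.19. Transcript length was not examined. These describe 40 genes measured in the same 8 libraries. By deposited TPM, 37 of the 40 genes had every siPAK4 library below every siControl library, against 11.3% of all tested genes on that scale, and 29 by CPM. The summed TPM ran from 935 to 1017 in siControl and from 657.5 to 766 in siPAK4, a ratio of means of 0.710.

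Lists of other cell cycle genes were counted in the same fit, in which 14.5% of all tested genes were lower and 12.4% were higher. Of 12 mitotic kinesins, the motors left out of the list, 12 were lower (median log2 fold change −0.46), with Kif14 at −0.62 and Kif15 at −0.75. Of 38 DNA replication genes, 20 were lower, 0 were higher and 18 did not pass (median −0.25). Rrm1 (−0.69, adjusted p = 8.4e-05) and Rrm2 (−0.68), the subunits of ribonucleotide reductase, were among the lower ones, as were the polymerase gene Pola1 (−0.50) and Uhrf1 (−0.45), which maintains DNA methylation behind the fork.

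Of 34 further kinetochore and centromere genes, 11 were lower and 23 did not pass (median −0.30). Knl1, the kinetochore scaffold for BUB1 and BUBR1, was at −0.69 (adjusted p = 0.000698) and Kntc1, a subunit of the RZZ checkpoint complex, at −0.57 (adjusted p = 0.00136). Spdl1 (−0.52), which recruits dynein to kinetochores, and Sgo2a (−0.42), a protector of centromeric cohesion, were the next. Of 30 centrosome, spindle assembly and abscission genes, 9 were lower and 21 did not pass (median −0.15). The 4 with the smallest adjusted p were Arhgap11a (−0.54), Spag5 (−0.52), Stil (−0.50) and Cit (−0.56), the last encoding citron kinase of the midbody. Of 16 regulators of mitotic entry, 6 were lower and 10 did not pass (median −0.23), among them Ccnf (−0.45), Cks1b (−0.42), the phosphatase gene Cdc25b (−0.51) and the centriole kinase gene Plk4 (−0.35), all lower.

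Of 22 condensin, cohesin and separase genes, 9 were lower, 1 was higher and 12 did not pass (median −0.11). The condensin II gene Ncapg2 (−0.53), the condensin gene Smc2 (−0.44) and the separase gene Espl1 (−0.60) were lower, and the cohesin gene Stag1 was higher (0.30, adjusted p = 0.00206). Of 17 genes of the anaphase-promoting complex and its regulators, 2 were lower, 1 was higher and 14 did not pass (median −0.03). Neither share was above that over all tested genes (14.5% lower and 12.4% higher). The lower ones were the cullin-like subunit Anapc2 (−0.40, adjusted p = 0.00325) and the inhibitor Fbxo5 (−0.45, adjusted p = 0.016), and Anapc16 was higher (0.28, adjusted p = 0.0112). Of the genes in the promoter table, 25% of this complex, 58.8% of the condensin, cohesin and separase list and 50% of the further kinetochore and centromere genes held a CHR element.

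Of 23 transcription regulators of the cell cycle, 7 were lower, 2 were higher and 14 did not pass (median −0.14). Foxm1, which encodes the activator of mitotic genes, was lower at −0.59 (adjusted p = 0.00218), from 16.3 ± 1.92 to 10.9 ± 1.39 CPM (SD, n = 4 each). E2f2 (−0.69), E2f8 (−0.77) and Tfdp2 (−0.44), the last encoding a dimer partner of E2F proteins, were lower too. The higher ones were Rb1 (0.25, adjusted p = 0.0148), which encodes the retinoblastoma protein that restrains E2F, and E2f5 (0.27, adjusted p = 0.0325), an E2F that can be part of the DREAM complex.

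**Figure D5:**
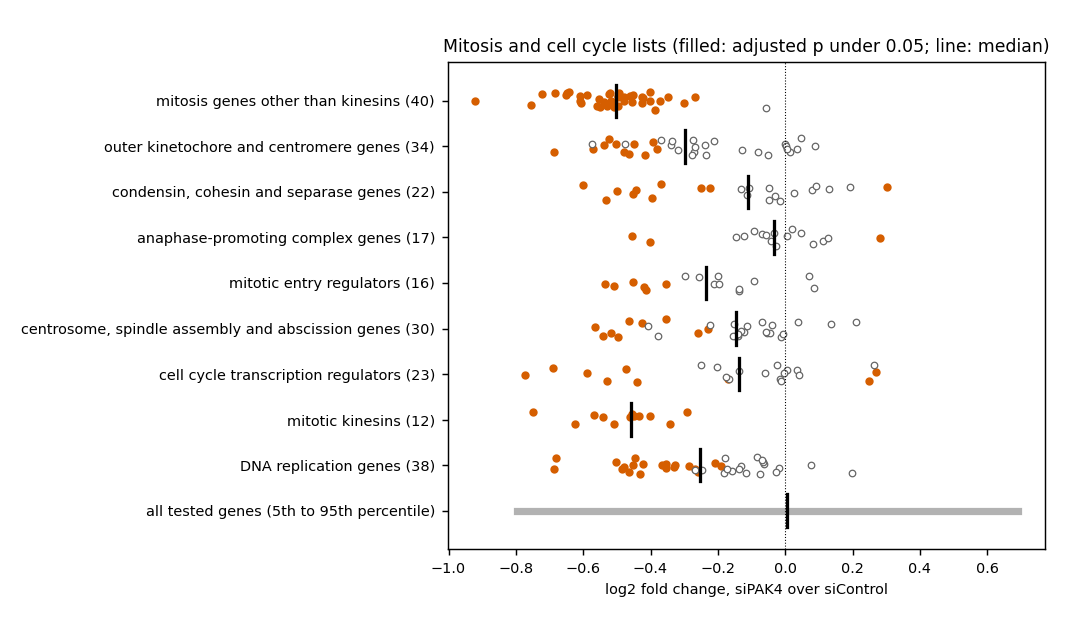
Log2 fold change, siPAK4 over siControl, of each gene in the mitosis and cell cycle lists; filled points passed an adjusted p of 0.05, black lines are medians, and the grey bar spans the middle of all tested genes. The medians run from −0.50 for the 40 mitosis genes and −0.46 for the kinesins to −0.03 for the anaphase-promoting complex.

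Total counts per library were 57297561 to 61535063 in siControl and 55728583 to 59205049 in siPAK4. Of all tested genes 2605 were lower and 2227 higher, so that 46.1% of calls were higher. Scaled by library totals alone, 67.6% of calls were higher and 34 of the 40 mitosis genes were lower. Markers of other liver cells differed between the groups as well. Summed stellate cell markers ran from 1262 to 1726 CPM in siControl and from 603 to 842 in siPAK4. Of 11 tested markers 6 were lower, and only 6 had an estimate below 0 (median log2 fold change −0.54, range −1.63 to 0.48). Col1a2 (log2 fold change −1.25), Col1a1 (−1.42) and Col3a1 (−1.10), the fibrillar collagen genes, were the most abundant of them and weighed most in the sum. They had up to 40592, 22862 and 13330 reads in a library, against at most 8773 for any other stellate marker. The stellate marker Reln was present at 30.9 ± 3.03 and 34.7 ± 2.59 CPM (SD, n = 4 each), and Lrat, the enzyme of retinoid storage, had at most 22 reads in a library.

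Summed macrophage markers ran from 9433 to 10946 CPM in siControl. In siPAK4 they were at 5331, 5479, 8633 and 6133 CPM in replicates 1 to 4, with 9 of 14 tested markers lower and a median log2 fold change of −1.37 (range −2.92 to 0.14). Lyz2 made up most of the sum, and without it the markers ran from 2275 to 2725 CPM in siControl and were at 1346, 1377, 1891 and 1563 CPM in siPAK4. siPAK4 replicate 3, the library with the highest mitosis gene levels of its group, was thus also the highest for these. Lyz2 was the most abundant (7815 ± 532 to 4850 ± 1286 CPM, SD, n = 4 each, log2 fold change −0.69, adjusted p = 0.00545), while Adgre1, which encodes F4/80, did not pass (0.14, adjusted p = 0.335) and Csf1r was lower (−0.31, adjusted p = 0.0188). Clec4f, a Kupffer cell marker, had at most 12 reads in any library.

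Summed endothelial markers ran from 6947 to 7224 CPM in siControl and were at 6141, 5297, 4199 and 5979 CPM in siPAK4, with 7 lower and 3 higher of 14. The most abundant were Cdh5 (−0.63, adjusted p = 0.0102), Stab1 (−0.41, adjusted p = 0.0093) and Pecam1 (−0.17, adjusted p = 0.179). Portal fibroblast and mesothelial markers ran from 863 to 1088 CPM and from 342 to 452 CPM, with 5 of 8 lower (median log2 fold change −0.80, range −2.10 to −0.01). Fbln2 weighed most in these sums, with up to 50170 reads in a library against at most 3561 for any other marker of that list. Hepatocyte markers were low and higher in siPAK4, at 2.68 to 4.21 CPM in siControl and 7.17 to 17.03 CPM in siPAK4, with 2 of 5 tested markers higher. Neutrophil markers summed to 6.83 to 11.3 and 10.6 to 13.98 CPM, cholangiocyte markers to 5.13 to 6.83 and 3.54 to 5.56 CPM, and lymphocyte markers to 1.41 to 1.57 and 1.45 to 2.01 CPM, in siControl and siPAK4 in that order. None of the tested markers of these 3 lists passed, and the neutrophil markers Ly6g, Elane and Retnlg had 0 reads in every library. The cells labelled stellate therefore also held macrophage and endothelial transcripts, and which cells the mitosis transcripts came from was not measured. The part of these cell types in the change of the mitosis genes was not tested.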

How the data were processed

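Polyadenylated RNA of 8 libraries, 4 siControl and 4 siPAK4, was sequenced. The authors deposited 1 table with whole-number read counts, FPKM (scaled to depth and gene length) and TPM (scaled further to a fixed total) per gene, per the file headers; the deposited FPKM values were not used in a test. Per the labels' protocols, RNA was extracted with Trizol and libraries were made with an Illumina TruSeq stranded mRNA kit. The submitters' processing notes name HISAT2 2.1.0 and Bowtie2 2.3.4.1, StringTie 2.1.3b, bcl2fastq 2.20.0, FastQC 0.11.7 and build mm10. The sources used here do not give the counting step or its strand setting, so overlapping antisense genes could share reads. Every value column was matched to a sample by its library name.

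Counts summed to 55728583 to 61535063 per library. Of 45777 genes, 17287 had no read. In edgeR 4.0.16, filterByExpr with a minimum count of 10 kept 17975, which were scaled by TMM (factors 0.958 to 0.978 in siControl and 1.02 to 1.05 in siPAK4) and compared by the robust quasi-likelihood test with Benjamini-Hochberg adjustment at 0.05. Standard errors came from the F statistic and intervals from its degrees of freedom. No replicate pair agreed within sampling noise (chi-square per degree of freedom 13.7 to 74.4). The pairs with siPAK4 replicate 3 were at 74.4, 52.0 and 54.9, and all other pairs at 13.7 to 35.2. Alternatives used DESeq2 1.42.0, limma 3.58.1, other scalings, filters and TPM, a replicate block and each library left out.

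The members and the gene lists were chosen with earlier results of these data known. Library values are given, within each role, for the gene with the highest siControl TPM and those with the largest and smallest fold change (all genes of a role of 4 or fewer). From each other list up to 4 genes with the smallest adjusted p are named, and from 3 marker lists up to 3 by CPM. Others, such as Reln, Lrat and Clec4f, were chosen after their values were seen. Coordinates are from RefSeq (GRCm38.p6, counted from 1).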

Additional observations from a re-analysis of the deposited data

Results flagged for a closer look

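Of 88 groups of 4 library values examined, 12 held a library whose gap to the nearest other as a share of the group's range, was above Dixon's 95% critical value for 4 samples. Chance gives about 1 in 20 for independent groups. These genes were measured in the same libraries and moved together, so 12 of 88 cannot be set against that rate. In siPAK4, replicate 3 stood above the others in 6 genes: Ccna2 (50.1 CPM, others 33.9 to 36.3), Ccnb1 (48.0, others 30.1 to 32.1), Aurka (20.8, others 14.6 to 15.4), Melk (12.3, others 9.34 to 9.83), Nusap1 (22.03, others 14.5 to 15.3) and Hmmr (29.0, others 22.8 to 23.9). It also stood above them in the summed TPM of the 40 mitosis genes (766, others 657.5 to 669.5).

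In siControl, replicate 1 stood below the others in Ccnb2 (17.1 CPM, others 20.8 to 21.1), Cdca3 (16.2, others 19.9 to 20.5) and Prc1 (50.6, others 54.5). siControl replicate 3 stood above them in Mki67 (359 CPM, others 321 to 325) and in total counts (61535063, others 57297561 to 57833787).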

How the results depend on the processing

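In all 18 alternatives between 31 and 39 of the 40 genes were lower, 0 were higher, and their median log2 fold change was −0.60 to −0.42. The direction turned for Ckap2 in 2 of them: 0.030 with library totals alone and 0.011 without siPAK4 replicate 1 (adjusted p 0.831 and 0.947). Leaving out siPAK4 replicate 3 put it at −0.157. With library totals alone, 5736 genes were called, 67.6% of them higher, and the median of all tested genes moved to 0.09; Nek2, Cdc20, Spc24, Spc25, Nusap1 and Ckap2 did not pass. Leaving out 1 library gave 31 to 39 lower genes, 3543 to 5494 calls over all genes and a Pak4 log2 fold change of −1.56 to −1.36. The calls for Nek2, Cdc20, Ndc80, Spc24, Spc25, Aurkb, Nusap1 and Dlgap5 were lost in at least 1 alternative; Cdc20 passed in 8 of 18 and Nek2 in 10. The other 31 genes passed in all 18. With the replicate number as a block, 39 genes were lower (median −0.51) and 4587 genes were called in all. The deviations of same-numbered libraries from their group means had correlations of 0.035, −0.047, 0.10 and −0.037 for replicates 1 to 4. Replicate 3 correlated best with its own number, but siControl replicate 1 correlated more with siPAK4 replicate 2 (0.12). With 4 libraries per group, these values cannot decide whether same-numbered libraries share a source. Every member had at least 206 counts in each library (median SE of the log2 fold change 0.10).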
